A study of Mus musculus with 4 samples.

Results

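Very long genes, taken here as protein-coding genes that span at least 300 kb on mouse chromosomes 1 to 19, were examined for peaks of immunoglobulin D (IgD) chromatin immunoprecipitation (ChIP) in pro-B cells. A peak belonged to the set when its summit, the base of highest enrichment, lay inside such a gene. The rule took in 4961 of the 52003 deposited peaks, of which 47979 lay on chromosomes 1 to 19. The study sorted B220+IgM-CD43+ pro-B cells from the bone marrow of wild-type mice, whose age and strain the labels do not give, and precipitated chromatin with an antibody against mouse IgD or with mouse IgG as the isotype control. There were 2 libraries for each antibody and 2 peak lists, IgD1 over IgG1 (pair 1) and IgD2 over IgG2 (pair 2), with 858 members among the 11375 peaks of pair 1 and 4103 members among the 40628 peaks of pair 2. Nothing in the labels says whether the pairs came from separate mice, and a peak list holds no expression values, so the pro-B identity could not be checked against marker genes. IgG was used only as the background of each list, and with 1 list per pair no test between conditions was made and no p-value is given. All intervals below are 95% intervals that cover counting error only. Summits lie in clusters along the chromosomes, so these intervals understate the error.

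Genes of this size consist mostly of introns, take hours to transcribe, and several of them are known as common fragile sites, where chromosomes break when replication is slowed. Many code for proteins of neurons, such as adhesion molecules of the synapse, receptors and ion channels, and a smaller number serve blood cells, such as the B-lineage transcription factor Ebf1. IgD is known as an antigen receptor of mature B cells, and pro-B cells are an earlier stage that has not yet made a complete receptor. ChIP peaks in such genes can lie at start sites, in regulatory elements or in the long stretches between them.

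Few members lay at annotated start sites, and the 4 windows below were chosen after the values were seen, as examples from genes described further on, to show how much of a start site such a peak took in. Each runs from 250 bp before to 50 bp after an annotated start, is printed from 5′ to 3′ on the gene's strand as RefSeq gives it for GRCm38 (mm10), and has in capitals the bases inside the peak. The windows are chr4:150281666-150281965 on the plus strand for Rere, and on the minus strand chr11:81152854-81153153 for Asic2, chr1:84284596-84284895 for Pid1 and chr14:123627095-123627394 for Nalcn. The first 3 are set against peaks of pair 2 and the last against a peak of pair 1. The start sites of Asic2 and Pid1 lie well inside the span of the gene, while that of Rere is 405 bp and that of Nalcn 186 bp from an outer end.
Rere: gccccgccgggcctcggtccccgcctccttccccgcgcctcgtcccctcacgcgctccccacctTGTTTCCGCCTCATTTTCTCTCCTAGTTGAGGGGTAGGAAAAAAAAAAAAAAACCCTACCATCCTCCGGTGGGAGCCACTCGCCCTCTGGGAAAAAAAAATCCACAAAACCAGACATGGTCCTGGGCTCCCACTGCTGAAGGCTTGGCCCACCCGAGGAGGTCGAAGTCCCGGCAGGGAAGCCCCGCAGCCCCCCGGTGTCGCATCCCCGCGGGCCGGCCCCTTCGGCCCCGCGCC
Asic2: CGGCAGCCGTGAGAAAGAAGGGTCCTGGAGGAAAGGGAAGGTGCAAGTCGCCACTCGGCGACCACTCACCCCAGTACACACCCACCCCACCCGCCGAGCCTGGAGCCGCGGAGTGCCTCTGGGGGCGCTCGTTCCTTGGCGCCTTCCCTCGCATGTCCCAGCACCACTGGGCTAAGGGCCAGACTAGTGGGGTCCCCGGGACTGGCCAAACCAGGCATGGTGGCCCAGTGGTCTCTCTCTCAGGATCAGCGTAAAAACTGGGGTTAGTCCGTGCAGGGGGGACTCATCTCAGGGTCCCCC
Pid1: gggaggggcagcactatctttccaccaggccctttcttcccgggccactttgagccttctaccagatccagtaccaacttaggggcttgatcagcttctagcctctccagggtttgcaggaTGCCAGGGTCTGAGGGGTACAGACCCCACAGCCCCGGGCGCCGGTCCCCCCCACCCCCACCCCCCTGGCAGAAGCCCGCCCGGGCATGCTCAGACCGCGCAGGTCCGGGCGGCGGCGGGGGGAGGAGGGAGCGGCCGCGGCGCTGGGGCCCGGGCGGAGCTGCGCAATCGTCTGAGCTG
Nalcn: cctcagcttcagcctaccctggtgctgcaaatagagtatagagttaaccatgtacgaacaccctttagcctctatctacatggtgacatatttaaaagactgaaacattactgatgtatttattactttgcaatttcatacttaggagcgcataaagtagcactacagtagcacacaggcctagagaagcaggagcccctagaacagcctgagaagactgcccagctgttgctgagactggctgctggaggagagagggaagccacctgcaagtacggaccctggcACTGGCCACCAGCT

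The peaks covered different amounts of these windows. At Rere, a corepressor of the atrophin family, 236 of the 300 bases lay in a peak of 621 bp whose summit was 108 bp from the start, and at Asic2, an acid-sensing ion channel, all 300 lay in a peak of 1254 bp with its summit 108 bp away. At Pid1, which codes for a phosphotyrosine-interaction adaptor, 179 bases lay in the peak, and at Nalcn, the sodium leak channel, 14 lay in a peak of pair 1. In pair 2 all 300 bases of the Nalcn window lay in a peak of 32898 bp with a fold of 6.85, whose summit was outside the gene. The first 3 windows were rich in G and C, at 65.7%, 65.3% and 69.7%, with 24, 16 and 20 CpG dinucleotides, whereas that of Nalcn had 48.3% and 3. The median over all 32851 tabulated windows was 52.7% with 7 CpG, and over the 605 windows of very long genes 57.7% with 13. Of those 605 windows, which cover 405 of the 533 genes, 6 (0.992%) met a peak of pair 1 and 15 (2.48%) a peak of pair 2. Over all 31396 windows on chromosomes 1 to 19 the shares were 1.31% and 3.58%.

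The reference table held 533 very long genes among 20558 protein-coding genes of chromosomes 1 to 19. They spanned 300244 to 2270506 bp, with a median of 451 kb, and together covered 301.6 Mb once overlaps were merged. In pair 1 they held 2.85 summits per Mb (2.66 to 3.04) against 2.62 (2.50 to 2.75) in shorter genes, a ratio of 1.08 (0.998 to 1.18). In pair 2 they held 13.6 per Mb (13.2 to 14.03) against 16.0 (15.7 to 16.3), a ratio of 0.851 (0.820 to 0.882). The interval of the ratio therefore took in 1 in pair 1 and lay below 1 in pair 2. With the limit set at 200 kb the ratio of pair 1 was 1.15 (1.06 to 1.24), and its interval lay above 1. Outside protein-coding genes the lists had 4.98 (4.86 to 5.09) and 16.4 (16.2 to 16.6) summits per Mb. In pair 2 that interval overlapped the one of shorter genes. The shortest genes, under 10 kb, had 5.06 (4.27 to 5.96) and 18.8 (17.3 to 20.5). Against sequence outside protein-coding genes the ratio of very long genes was 0.572 (0.532 to 0.614) in pair 1 and 0.830 (0.803 to 0.858) in pair 2.

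The density did not follow length in the same way in the 2 lists. In pair 2 it went from 18.8 summits per Mb in genes under 10 kb through 16.5 at 30 to 100 kb and 14.8 at 100 to 300 kb to 13.7 (13.1 to 14.4) at 300 to 500 kb. It was higher again at 500 kb to 1 Mb, at 14.8 (14.03 to 15.5), and 11.7 (10.9 to 12.5) in the 55 genes of 1 Mb or more. In pair 1 it was 5.06 under 10 kb, between 2.34 and 2.81 from 10 to 500 kb, 3.798 at 500 kb to 1 Mb and 1.52 (1.25 to 1.83) at 1 Mb or more. The genes of 1 Mb or more were thus the least dense class of both lists. Pair 2 had 4.78 times as many summits as pair 1 in very long genes, 6.10 times as many in shorter genes and 3.29 times as many outside genes.

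**Figure D1:**
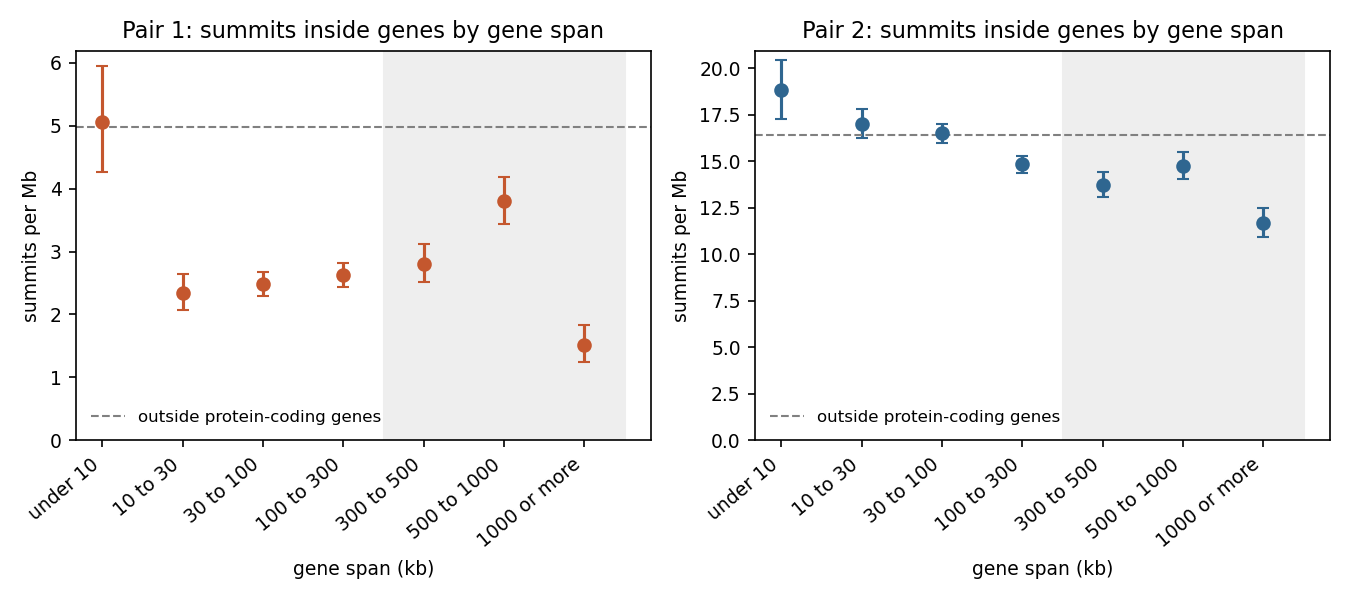
Summits per Mb (vertical axis) by gene span (horizontal axis) in pair 1 and pair 2, with 95% exact Poisson intervals, shading over the very long genes and a dashed line for sequence outside protein-coding genes. Pair 2 is highest under 10 kb, at 18.8, and lowest at 1 Mb or more, at 11.7, with 14.8 at 500 kb to 1 Mb above 13.7 at 300 to 500 kb, and pair 1 has its lowest value, 1.52, at 1 Mb or more.

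The relation differed between chromosomes, most of all in pair 1. There the ratio of very long to shorter genes ran from 0.0803 on chromosome 19 to 3.06 on chromosome 1, with a median of 0.670, and was above 1 on 9 of 19 chromosomes. In pair 2 it ran from 0.598 on chromosome 19 to 1.09 on chromosome 7, with a median of 0.826, and was above 1 on 5 of 19. Chromosome 19 was lowest in both lists, with 2 member summits in pair 1 and 52 in pair 2. Chromosome 1 held 186 of the 858 member summits of pair 1, in Dner, Adgrb3, Prex2 and other genes described below.

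**Figure D2:**
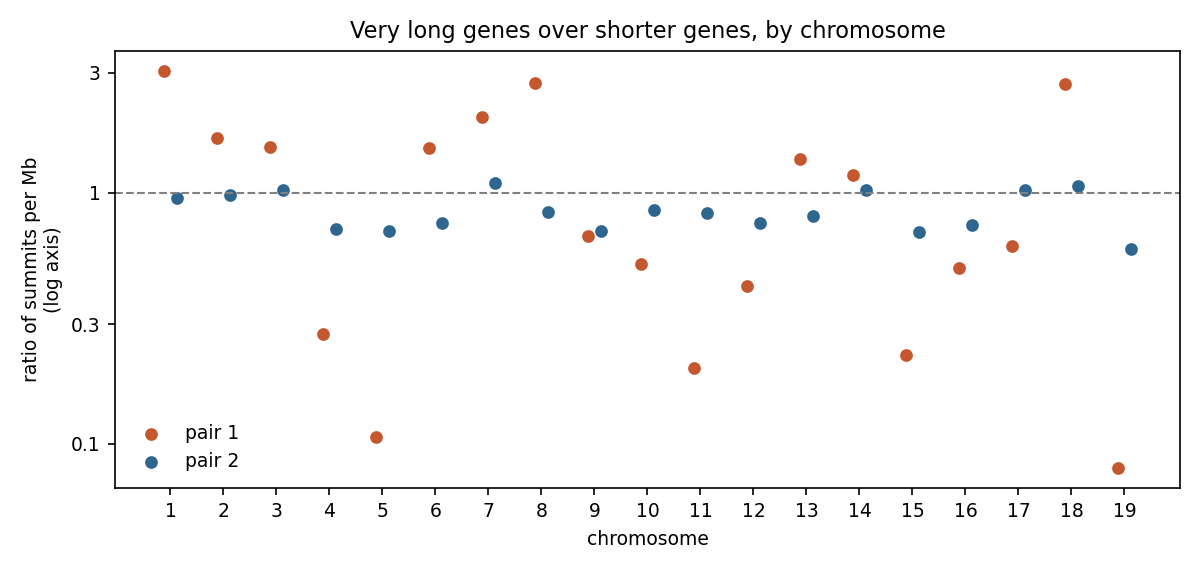
Summits per Mb in very long genes divided by that in shorter genes (vertical axis, logarithmic) for each chromosome from 1 to 19 (horizontal axis) in pair 1 and pair 2. Pair 1 ranges from 0.0803 to 3.06 and pair 2 from 0.598 to 1.09.

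The 2 lists spread their members over very different numbers of genes. In pair 1, 172 of 533 very long genes (32.3%) had a summit inside, and in pair 2, 525 (98.5%) did. Pair 2 is the longer list, and with both lists at equal length 375 genes had a summit in pair 2 and 145 in both. With 98.5% of the genes reached by pair 2, nearly every gene of pair 1 is bound to be shared. Over all protein-coding genes the shares were 5.44% and 32.8%. Since longer genes offer more sequence, these shares are to be read beside the densities above. A summit of each list lay in 171 genes, where 3.75% of all protein-coding genes had one, only pair 2 had one in 354, and only pair 1 in 1, Cfap54. Neither list had one in 7, named here after their values were seen: Cntn6, Spock3, Dcdc5, Ccdc178, Slc2a13, Col19a1 and Runx2, the last a transcription factor of bone formation. Among all protein-coding genes 65.5% had none.

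Pair 1 was concentrated. The 10 genes with most summits held 43.1% of its member summits, against 10.6% in pair 2, and 50% of the summits lay in 13 genes in pair 1 and in 111 in pair 2. The quartiles of summits per Mb over the 533 genes were 0, 0 and 1.79 in pair 1, with a maximum of 131, and 7.22, 11.1 and 16.2 in pair 2, with a maximum of 148. With the 10 genes of most summits left out of the very long genes and of the shorter genes, the densities were 1.65 and 2.25 per Mb in pair 1 and 12.5 and 15.7 in pair 2. The ratio was then 0.734 (0.661 to 0.813) in pair 1 and 0.797 (0.767 to 0.827) in pair 2. These genes were chosen by their own counts and held 371 summits of very long and 261 of shorter genes in pair 1, and 437 and 220 in pair 2, so that a lower ratio follows from the choice.

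At least 10 summits lay in 20 very long genes in pair 1 and in 131 in pair 2, where the share over all protein-coding genes was 0.238% and 0.876%. Of the 20 genes of pair 1, 19 also had 10 or more in pair 2. Of the 49 protein-coding genes of any length with 10 or more in pair 1, 30 did, which is 0.146% of all 20558. The exception was Dner, with 7 in pair 2. At least 20 in each list were held by Prex2, Nalcn, Plxdc2, Etl4, Nell1, Luzp2 and Unc5d. Across the 533 genes the summits per Mb of the lists had a Spearman rho of 0.292 and a Pearson r of 0.568, and across the 401 genes with fewer than 10 summits in each list rho was 0.0906. Genes are not independent replicates, neighbouring genes share stretches of chromosome, and these values are descriptions.

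**Figure D3:**
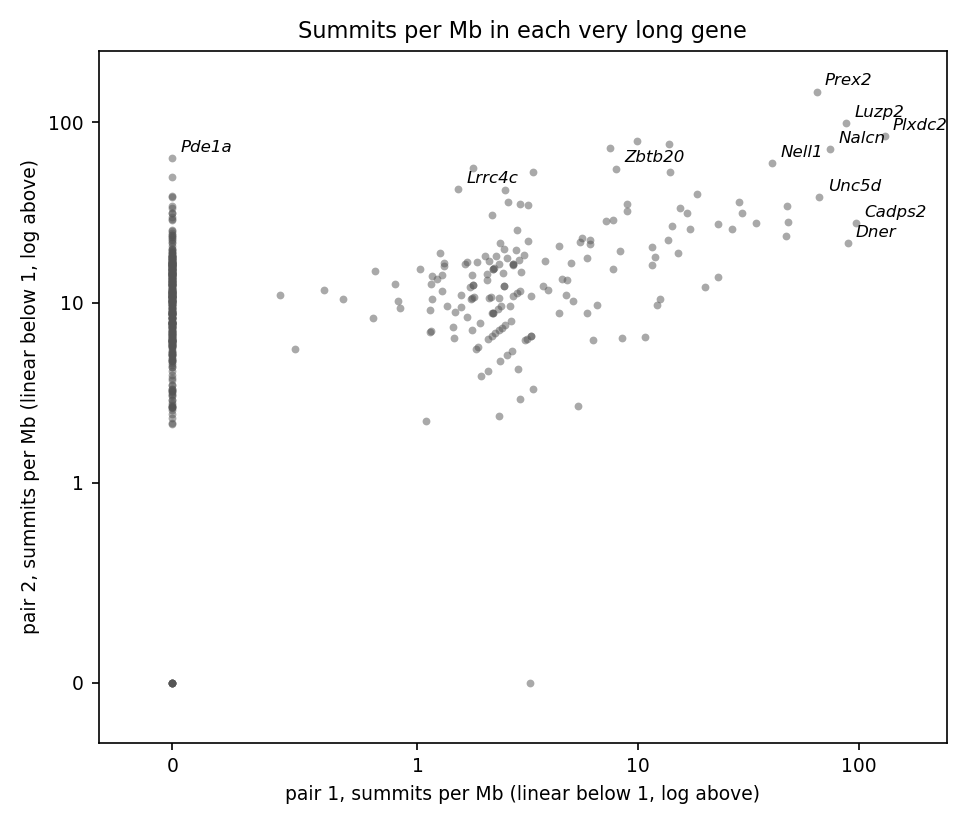
Summits per Mb of pair 2 (vertical axis) against pair 1 (horizontal axis) for the 533 very long genes, on axes that are linear below 1 and logarithmic above. Most genes lie at 0 in pair 1, and a small group, among them Plxdc2 and Luzp2, is high in both lists.

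Some genes were dense in both lists. Plxdc2 (chr2:16355740-16761132), which codes for a membrane protein with a plexin domain, had 53 summits in pair 1, or 131 per Mb (97.9 to 171), and 34 in pair 2, or 83.9 per Mb (58.1 to 117). Pair 1 had no summit in the 500 kb before the gene and 121 in the 500 kb after it, and pair 2 had 5 and 45. Its summits in pair 1 began 21.4% of the way along the gene and went on past its end in an unbroken run. Peaks covered 66.6% of the gene in pair 1 and 7.05% in pair 2.

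Luzp2 (chr7:54835245-55268888), a leucine zipper protein, had 38 summits in pair 1, or 87.6 per Mb, and 43 in pair 2, or 99.2. Peaks covered 67.3% of it in pair 1 and 48.7% in pair 2, and both lists held broad peaks there. Nell1 (chr7:49975350-50863289), which codes for a secreted growth factor of bone, had 36 in pair 1, or 40.5 per Mb, and 53 in pair 2, or 59.7. As at Plxdc2, the 500 kb after it were dense, with 75 summits in pair 1 and 39 in pair 2, while the 500 kb before it held 1 and 5.

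Prex2 (chr1:10993273-11303683), an exchange factor for the GTPase Rac, had 20 summits in pair 1, or 64.4 per Mb (39.4 to 99.5), and 46 in pair 2, or 148 (108 to 198), the highest density of pair 2 in any very long gene. The summits extended over its lower end, with 24 and 20 in the 500 kb before it, and few lay after it, with 0 and 5. Nalcn (chr14:123275678-123627330) had 26 in pair 1, or 73.9 per Mb, and 25 in pair 2, or 71.1, with 31.03% and 54.7% of the gene covered. Next to it lies Itgbl1 (chr14:123659937-123978865), an integrin-like protein, with 15 and 11 summits and 64.6% of the gene covered in pair 2. Unc5d (chr8:28646717-29219671), a netrin receptor of axon guidance, had 38 in pair 1, or 66.3 per Mb, and 22 in pair 2, or 38.4.

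Among genes dense mainly in pair 1, Cadps2 (chr6:23262773-23841175), which serves the release of dense-core vesicles, had the most summits, 56, or 96.8 per Mb (73.1 to 126), and 16 in pair 2, or 27.7 (15.8 to 44.9). All 56 lay between 52.7% and 99.3% of the way along the gene, counted from its lower coordinate, and its flanks of 500 kb held 1 and 7. Adgrb3 (chr1:25067476-25834772), an adhesion receptor of brain, had 36 in pair 1, or 46.9 per Mb (32.9 to 65.0), with 1 and 0 in its flanks, and 18 in pair 2, or 23.5. Its pair 1 summits therefore stopped within the gene on both sides, at 8.34% and 67.8%.

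Pde4d (chr13:108654177-109955969), a phosphodiesterase that breaks down cyclic AMP, had 30 summits in pair 1, all between 0.10032% and 10.3% of its 1302 kb, with 27 in the 500 kb before it. In pair 2 it had 18, spread from 5.21% to 98.8%, so the lists differed in where along the gene their summits lay. Egfem1 (chr3:29081653-29691058) had 29 in pair 1, or 47.6 per Mb, and 17 in pair 2, or 27.9. Dner (chr1:84369839-84696221), a Notch-related membrane protein of neurons, had 29 in pair 1, or 88.9 per Mb (59.5 to 128), and 7 in pair 2, or 21.4 (8.62 to 44.2). Its neighbour Pid1 (chr1:84036293-84339842) was the other way round, with 3 in pair 1, or 9.88 per Mb, and 24 in pair 2, or 79.1.

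Genes dense mainly in pair 2 included the one with most summits there. Lrrc4c (chr2:96318169-97631672), the netrin-G ligand NGL-1 of the synapse, had 56 in pair 2, or 42.6 per Mb (32.2 to 55.4), and 2 in pair 1, or 1.52. Both lists were dense in the 500 kb after it, with 32 in pair 1 and 36 in pair 2, while the 500 kb before it held 0 and 6. Cntnap5c (chr17:57769074-58417953), a contactin-associated protein, had 49 in pair 2, or 75.5 per Mb (55.9 to 99.8), and 9 in pair 1, or 13.9.

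Zbtb20 (chr16:42875689-43634392), a zinc finger repressor active in B and plasma cells among others, had 42 in pair 2, or 55.4 per Mb (39.9 to 74.8), and 6 in pair 1, or 7.91. Its flanks in pair 2 held 10 and 4. Fhit (chr14:9550092-11162061), which lies at a well-known fragile site, had 37 in pair 2, or 22.95 per Mb, and 9 in pair 1, or 5.58. Pde1a (chr2:79834453-80196522), another cyclic nucleotide phosphodiesterase, had 23 in pair 2, or 63.5 per Mb, and none in pair 1.

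**Figure D4:**
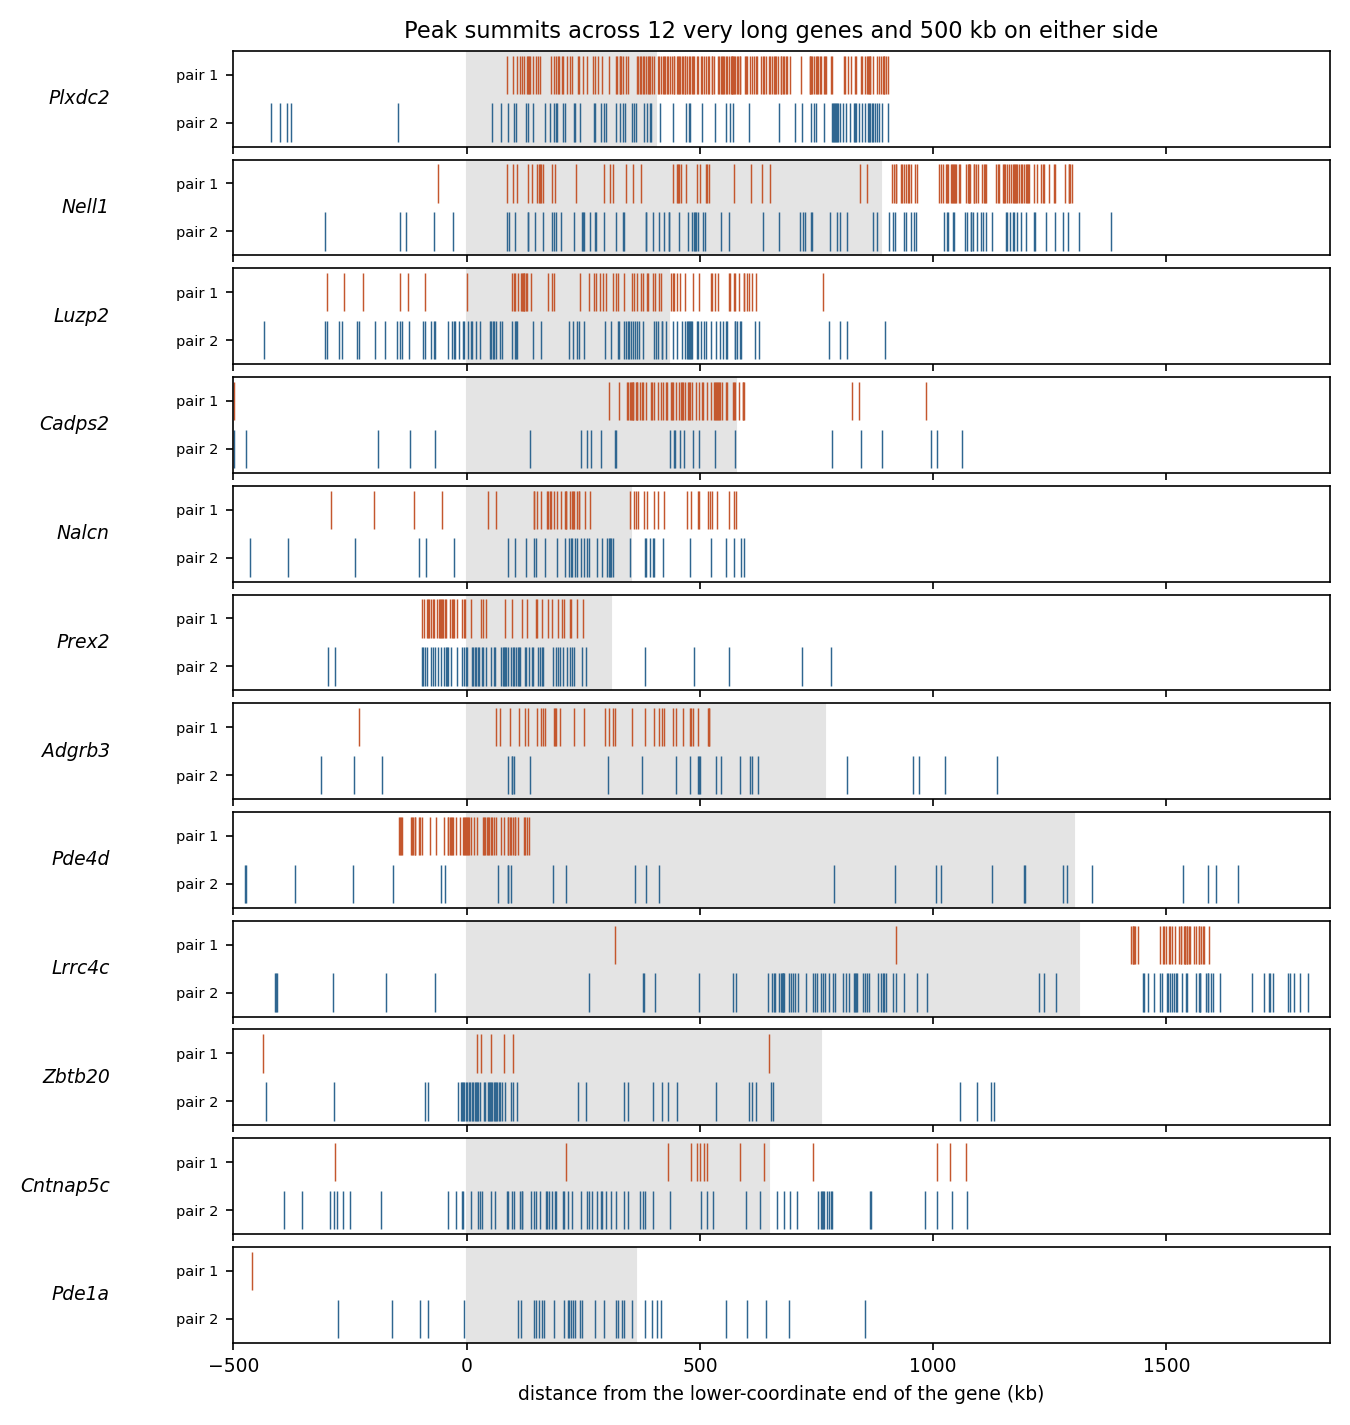
Summits of pair 1 and pair 2 along 12 very long genes and 500 kb on either side, with distance in kb on the horizontal axis and the gene span in grey. In Cadps2 and Pde4d the summits of pair 1 fill one stretch of the gene, in Plxdc2 they run past its end, in Nell1 they are dense in the gene and again beyond it, and in Lrrc4c, Zbtb20, Cntnap5c and Pde1a most summits inside the gene are of pair 2.

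The 5 longest genes were Ptprd (2271 kb), a receptor phosphatase, Cntnap2 (2241 kb) and Lsamp (2197 kb), adhesion proteins of neurons, Lrp1b (2058 kb), a lipoprotein receptor, and Macrod2 (1998 kb), an enzyme that removes ADP-ribose. In pair 1 they had 1, 0, 0, 3 and 1 summits, and in pair 2 they had 25, 29, 17, 13 and 11. The last give 11.01, 12.9, 7.74, 6.32 and 5.51 summits per Mb, each below the pooled 13.6 of all very long genes. Against the median gene, at 11.1, Cntnap2 was above, Ptprd close to it and the other 3 below. Beside Macrod2 and Ptprd pair 1 had dense flanks, with 86 summits in the 500 kb after Macrod2 and 20 in the 500 kb before Ptprd.

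Whether a dense gene stood out from its surroundings was described by the 500 kb on either side. Of the 20 genes with 10 or more summits in pair 1, 16 were denser than their flanks, with medians of 43.7 and 20 summits per Mb, and of the 131 in pair 2, 83 were, with medians of 17.6 and 16.0. Over all 533 genes, 127 were denser than their flanks in pair 1 and 219 in pair 2. In pair 1 only the 172 genes with a summit could be denser, and many of the rest had no summit in their flanks either. The 127 therefore does not show that the other genes were sparser than their surroundings. The genes of 10 or more were chosen by their summits, so their higher density is no finding.

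Runs of summits, defined after the data were seen as 10 or more summits with gaps of at most 25 kb, held 397 members of pair 1 (46.3%, 43.0 to 49.6) and 531 of pair 2 (12.9%, 11.9 to 14.004). Over all peaks on chromosomes 1 to 19 the shares were 54.6% and 17.1%, in shorter genes 36.2% and 9.64%, and outside genes 60.3% and 21.3%. Members thus lay in runs more often than peaks of shorter genes and less often than peaks outside genes, in both lists. Summits outside runs had a density of 1.54 per Mb in very long genes, 1.68 in shorter genes and 2.01 outside genes in pair 1, and of 11.999, 14.6 and 13.2 in pair 2. The 3 classes of pair 1 were then nearer to each other, while in pair 2 shorter genes had the highest value. Runs were picked for their own density, so a fall that is larger where runs hold more summits follows from the choice.

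Of the runs, 20 of pair 1 and 36 of pair 2 reached into a very long gene. They were 41.05 to 697 kb long in pair 1, with a median of 137 kb, and 69.7 to 351 kb in pair 2, with a median of 131 kb. The longest, of 151 summits, ran from chr2:16442392 in Plxdc2 to chr2:17139396. Others of pair 1 had 60 summits in 290 kb at Cadps2, 60 in 375 kb at Unc5d and 57 in 278 kb at Pde4d, and others of pair 2 had 44 in 292 kb at Lrrc4c, 37 in 313 kb at Cntnap5c and 34 in 126 kb at Zbtb20. A run of the other list overlapped 8 of the 20 and 9 of the 36. Prex2 is given here because its borders were the closest. The first summits lay 138 bp apart, at chr1:10897946 in pair 1 and chr1:10898084 in pair 2. The last summits lay 6338 bp apart, though pair 1 there formed 2 runs. At the other overlapping runs the first summits lay 39257 bp or more apart and the last summits 1589 to 540380 bp apart, so close borders were not general.

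By the authors' deposited values the median fold enrichment over background was 3.46 in pair 1 and 3.78 in pair 2, and these medians were the same in shorter genes and outside genes. Many deposited folds fall on the same recurring values, so equal medians are ties and do not show equal strength. A -log10 q of at least 5 was reached by 16.6% (14.2 to 19.2) of members in pair 1 and 36.9% (35.4 to 38.4) in pair 2, against 17.2% and 38.9% of all peaks on chromosomes 1 to 19. In shorter genes the shares were 17.6% (15.9 to 19.4) and 40.1% (39.2 to 40.997), so the intervals overlapped in pair 1 and members were below in pair 2. If IgD fragments were left unscaled, the fold and the p-value of a peak give the number of fragments at its summit. That number had a median of 13 in pair 1, ranging from 9 to 28, and of 14 in pair 2, ranging from 8 to 80. A single count of 13 has an exact Poisson interval of 6.92 to 22.2, and a single count of 14 one of 7.65 to 23.5. These are not intervals of the medians. On that assumption a typical member rests on few fragments, and the interval of a single count is wide. Whether differences in fold between members could be detected was not tested.

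Median widths were 847 bp in pair 1 and 761 bp in pair 2. In pair 1, 99 members (11.5%, 9.57 to 13.8) were 5 kb or wider, where 8.62% of all peaks, 6.15% of those in shorter genes and 8.89% of those outside genes were. In pair 2, 64 (1.56%) were, where 2.73% of all peaks, 1.61% in shorter genes and 3.47% outside genes were. Unc5d had 19 such peaks in pair 1, Plxdc2 18 and Luzp2 17, while Adgrb3, Pde4d, Egfem1, Dner and Prex2 had none there. Dense genes thus came both with broad peaks and with narrow ones.

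The strongest members by the authors' deposited fold were mostly broad in pair 1 and mostly narrow in pair 2, with exceptions in both lists. In pair 1 the highest value, 7.19, belonged to a peak of 11188 bp in Cadps2 (chr6:23780984-23792171) and to one of 15048 bp in Nell1 (chr7:50147675-50162722), each with 26 fragments at the summit (17.0 to 38.1). Nell1 held 3 more of the 8 highest, at 6.92, 6.66 and 6.39. Luzp2 held 2, at 6.66 and 6.12, and Kcnb2, a potassium channel, 1 at 6.12. The peaks at 6.12 were narrow, 1866 bp in Luzp2 and 836 bp in Kcnb2. Of the 8, all but the peak in Kcnb2 lay in genes where peaks covered 24.6% or more of the span.

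In pair 2 the highest fold, 11.3, belonged to the peak at the start site of Rere printed above (chr4:150281730-150282350), with 49 fragments (36.3 to 64.8) and a -log10 q of 36.2. Ptprn2, a phosphatase-like protein of secretory vesicles, followed at 11.1 (chr12:116944308-116945296). Fhit (chr14:10064626-10065264), Pde1a (chr2:79989665-79990802) and Asic2 (chr11:81428779-81429354) each had a peak at 10.0. The list went on with Nkain3 at 9.73, Itgbl1 at 9.46 and Sema6d, a semaphorin of axon guidance, at 9.23. Apart from the peak in Itgbl1, of 35302 bp, these were 520 to 1138 bp wide, and apart from the peak in Rere none was nearer than 35654 bp to an end of its gene.

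Members lay along the whole of their genes. Each gene was cut into 5 equal classes by distance from the nearer end, so that each held 20% of the sequence. The outermost class held 24.4% (21.6 to 27.3) of summits in pair 1 and 21.0% (19.7 to 22.2) in pair 2. The innermost held 16.1% (13.8 to 18.7) and 18.8% (17.6 to 19.99). Single dense genes can weigh on the shares of pair 1. Pde4d had 30 pair 1 summits between 0.10032% and 10.3% of its span, and Spag16 had 18 between 90.1% and 99.0%. Other dense genes reached further in, such as Adgrb3 with 36 between 8.34% and 67.8%. Shares without single genes were not computed. The windows within 3 kb of an end, which made up 1.05% of the sequence, held 15 members of pair 1 (1.75%, 1.06 to 2.86) and 46 of pair 2 (1.12%, 0.842 to 1.49). Start and end of a gene are counted together here, since strand was given for too few of these genes. The distance from a member's summit to the nearest summit of its list had a median of 6.63 kb in pair 1 and 18.6 kb in pair 2. In shorter genes the medians were 8.93 and 18.8 kb, and outside genes 4.30 and 13.7 kb. The genes held 52 annotated microRNA hairpins, of which 0 met a peak of pair 1 and 4 a peak of pair 2. The share over all hairpins was not counted, so these counts say nothing particular to very long genes.

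Peaks found at the same place in both lists were counted next. Of the 858 members of pair 1, 182 (21.2%, 18.6 to 24.1) overlapped a peak of pair 2 by at least 1 bp, where 27.5% of all peaks did, 22.9% in shorter genes and 29.4% outside genes. Of the 4103 members of pair 2, 198 (4.83%, 4.21 to 5.52) overlapped one of pair 1, where 6.23% of all did, 3.18% in shorter genes and 7.91% outside genes. The 182 lay in 36 genes, and 101 of them (55.5%) in 5: Luzp2 with 24 of its 38, Nalcn with 24 of 26, Plxdc2 with 24 of 53, Itgbl1 with 15 of 15 and Unc5d with 14 of 38. These are genes in which peaks cover 36.04% to 67.3% of the span in at least 1 list, so that an overlap there does not place both summits together.

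Summits of both lists within 200 bp of each other made 17 pairs in 13 genes, 1.98% of the members of pair 1 and 0.414% of those of pair 2, against 3.02% and 0.766% of all peaks. The highest lower fold was in Nell1, where the summits, at chr7:50157993 and chr7:50157995, lay 2 bp apart, with folds of 7.19 and 4.60. Of the 17, only these summits had a -log10 q of 5 or more on both sides. Plxdc2 had 4 such pairs, Etl4 had 2, and Prex2, Dner, Pid1, Cntnap5a, Nrxn3, a presynaptic neurexin, Lrrc4c and Unc5d were among those with 1. The lower fold of the 17 ran from 2.18 to 4.60.

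The B-lineage and blood cell list, the one nearest to the cells studied, had 18 members of 300 kb or more. All 18 had a summit in pair 2 and 7 had one in pair 1, beside 525 and 172 of the 533. Their summits summed to 17.1 per Mb in pair 2 and 1.43 in pair 1, beside 13.6 and 2.83 over all very long genes summed the same way, and their median in pair 2 was 14.2 per Mb beside 11.1. Zbtb20 held 42 of the 155 summits of pair 2, and without it the list had 13.6 per Mb. Ebf1 (chr11:44618100-45008096), which sets up the B-cell programme, had 8 summits in pair 2, or 20.5 per Mb (8.86 to 40.4), and none in pair 1.

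Among the transcription and RNA regulators of that list, Foxp1, Tox, Tcf4, Bach2, Arid1b and Msi2 had 9, 5, 5, 3, 3 and 6 summits in pair 2 and none in pair 1, while Celf2 had 12 and 1 and Mecom 7 and 1. Among its signalling members, Elmo1, Inpp4b, Prkcb and Vav3 had 12, 10, 5 and 4 in pair 2 and none in pair 1, Plcb1, a phospholipase, had 8 and 2, and Dock2, an activator of Rac in lymphocytes, 6 and 1. Lpp and Itpr1, the calcium channel of the endoplasmic reticulum, had 5 and 1 each. Of the 18 only Zbtb20 had more than 12 in pair 2, and none had more than 6 in pair 1.

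In pair 2 the groups of synaptic and axonal adhesion and of receptors and channels were near the 13.6 per Mb of all very long genes. Cadherins and catenins were below it. The 43 genes of synaptic and axonal adhesion had 13.4 summits per Mb in pair 2 and 2.85 in pair 1, with a summit in 42 and 19 of them. Without Unc5d the value in pair 1 was 1.96, and without Lrrc4c the value in pair 2 was 12.4. The 39 neurotransmitter receptors and ion channels had 13.2 and 2.78 per Mb, with a summit in 39 and 13, and without Nalcn the value in pair 1 was 1.67. The 13 cadherins and catenins, which join cells to each other, had 11.3 and 0.436 per Mb, with a summit in 13 and 4.

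Of the remaining groups, the 20 genes known as common fragile sites had 11.2 summits per Mb in pair 2 and 0.882 in pair 1, with a summit in 20 and 7 and a median of 8.83 in pair 2. Fhit held 37 of their 292 summits in pair 2. The 29 intracellular signalling and scaffold genes had 12.6 and 1.99 per Mb, with a summit in 29 and 9, and without Pde4d the value in pair 1 was 0.531. The 27 transcription factors and RNA-binding proteins had 13.97 and 0.726 per Mb, with a summit in 27 and 7, and without Zbtb20 the value in pair 2 was 11.98. The median in pair 1 was 0 in every list, as over all very long genes. Some genes stand in more than 1 list.

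Genes on either side of the limit of 300 kb are given as a description. Just inside it, Zfp423 (300244 bp) had 0 summits in pair 1 and 3 in pair 2, Kcnq3 (300263 bp) 1 and 16, Jazf1 (300560 bp) 1 and 1, and Nxph1 and Cacna1a 0 and 1 each. Just outside it, Akap13 (299084 bp) had 1 and 4, Slc44a5 (298312 bp) 0 and 14, Kcnmb2 and Atp2b2 0 and 4 each, and AW554918 0 and 5.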

How the data were processed

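The samples were pro-B cells sorted from wild-type mice. HISAT2, MACS2 and ChIPseeker and the build mm10 are named per the submitters' processing notes, without versions or settings. The authors deposited, for each peak, the fold enrichment over background (a ratio), the -log10 p, the -log10 q and the offset of the summit from the peak's start, in narrowPeak format. The lists ended at a -log10 q of 1.31 (pair 1) and 1.30 (pair 2). Reads per library were not used here.

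Gene spans came from a RefSeq gene table for GRCm38, which is mm10. It held 49997 genes, of which 402 on other scaffolds or without a place were left out. The table gives no exons, so peaks were not assigned to exons, introns or UTRs. Strand came from the RefSeq table of start-site windows, which held 405 of the 533 genes. Fewer than the 80% needed had a strand, and positions were counted from the nearer end. The design had planned a finer division of the gene, and 5 classes by distance from an end were used in its place.

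Densities are summits over the merged span of the genes, and sequence in both a very long and a shorter gene was counted as very long only. They have exact Poisson intervals, their ratios exact conditional binomial intervals and shares Wilson intervals. Summits per Mb in flanks were counted over 500 kb on each side. Gene lists were summed over single genes, a summit in overlapping genes counting in each. Fragments at a summit were found by solving the fold as (fragments + 1) / (background + 1) together with the p-value as a Poisson upper tail. No source used here says that IgD fragments were left unscaled, as this assumes. All members had a solution within 0.01 of the deposited -log10 p. Procedures were tested on simulated data.

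The members and the gene lists were chosen with earlier results of these data known. Genes were named by rule: the 5 longest, in each list the 8 with most summits, the 8 with most summits per Mb and those holding the 8 peaks of highest fold, up to 10 with summits of both lists within 200 bp, and the B-lineage and blood cell list. A gene that the rule names is not reported here. Cfap54, Spag16, genes of neither list and genes at the length limit were added after their values were seen. Alternatives were thresholds on q, fold and width, other length limits, equal list lengths, overlap in place of the summit, other comparison sequence and stricter sharing. Computation used scipy 1.17.1, pandas 2.3.3 and numpy 2.4.6 under Python 3.11.15, and plots matplotlib 3.10.9.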

Additional observations from a re-analysis of the deposited data

How the results depend on the processing

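The ratio of summit density in very long to shorter genes in pair 2 (0.851) was below 1 under every alternative run: 0.783 with a -log10 q of at least 5, 0.810 with a fold of at least 4, 0.766 with both lists at equal length and 0.917 against only shorter genes of 100 kb or more. In pair 1 (1.08) it was 1.15 with genes of 200 kb or more (interval 1.06 to 1.24, above 1), 1.15 with a fold of at least 4, 0.983 with peaks narrower than 2000 bp and 0.572 against positions outside genes. Without the 10 genes with most summits of each kind, an alternative added after the data were seen, it was 0.734 in pair 1 and 0.797 in pair 2, a fall that removing genes by their own counts builds in. The causes of the other shifts were not tested. Genes with a summit numbered 172 in pair 1, 525 in pair 2 and 171 in both. With a -log10 q of at least 5 there were 55 in pair 1 and 52 in both, with a fold of at least 4, 67 and 65. From 200 kb upward there were 266, 910 and 259, and from 500 kb 90, 216 and 90, as more or fewer genes then enter. Members overlapping the other list, 182 in pair 1 and 198 in pair 2, numbered 27 and 27 with 50% reciprocal overlap, 17 and 17 with summits within 200 bp, 40 and 43 where -log10 q reached 5 on both sides, and 51 and 50 with both peaks narrower than 2000 bp. With gaps of up to 50 kb, also added afterwards, runs held 505 members of pair 1 and 977 of pair 2.

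No paired analysis was possible because each list already joins an IgD library to the IgG library of its number and gives 1 value. For the same reason no replicate was left out, and each pair is given alone. Counts near 13 fragments per summit, found on the assumption that IgD fragments were unscaled, limit what a single peak shows.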

Other observations

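Chromosome X, which the rule leaves out, held 24 protein-coding genes of 300 kb or more, spanning 15.1 Mb. They had 129 summits in pair 1, or 8.56 per Mb (7.15 to 10.2, exact Poisson interval for counting error only), against 3.55 (2.92 to 4.29) in shorter genes of X. In pair 2 they had 215, or 14.3 per Mb (12.4 to 16.3), against 10.8 (9.69 to 12.1). In pair 1, 94 of the 129 summits lay in 3 genes, Arhgap6, Tenm1 and Il1rapl2. Without these 3, an alternative added after the data were seen, pair 1 had 2.83 per Mb (1.97 to 3.93). Pair 2 then had 12.9 (10.9 to 15.01). The 3 were chosen by their own counts in pair 1, and no shorter gene was left out. The fall in pair 1 therefore follows from the choice, and 2.83 is not to be set against the 3.55 of shorter genes. The following genes were picked after their values were seen. Arhgap6 had 37 summits in pair 1 and 2 in pair 2. Il1rapl2, an interleukin-1 receptor relative, had 25 summits in pair 1 and 8 in pair 2, and Tenm1, a teneurin of neurons, 32 and 46. Dmd, the dystrophin gene of 2390387 bp, had 2 in pair 1 and 46 in pair 2, and Il1rapl1 had 3 and 22. Whether these differences exceed the spread between experiments was not tested.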
